A study of Mus musculus with 22 samples.

Results

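The genes described here are 38 type I interferon-stimulated antiviral genes, chosen by name from the 46882 genes of the expression table and followed through MC38 cells, skin and 4 groups of MC38 tumors. The study transplanted MC38 cells into immunocompetent and lymphocyte-deficient mice to ask how the immune system shapes a tumor, and RNA of cells, skin and tumors was sequenced from the 3′ end of each transcript. MC38 is a chemically induced colon adenocarcinoma line from a C57BL/6 mouse, and 50000 cells were injected under the skin of the left flank of female mice. Of 22 RNA samples in the series, 16 are used here and the other 6, from antibody-treated mice, were not analysed here. The tumor groups are wild-type C57BL/6N mice at day 23 and day 46 and RAG1-/- mice (strain B6.129S7-Rag1tm1Mom/J) at day 13 and day 23 after injection, with 3 tumors in each. The other groups are 2 samples of MC38 cells in culture and 2 of wild-type C57BL/6N skin labelled day 23. The mice were 8 to 12 weeks old. Host genotype and substrain cannot be told apart, and each tumor library is a piece of whole tumor. The labels number the samples without saying that each came from a separate culture or mouse, so the p-values measure the spread between these samples.

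Type I interferons (IFN-alpha and IFN-beta) are released by cells that sense foreign or misplaced nucleic acid, and act through the receptor chains IFNAR1 and IFNAR2 and the kinases JAK1 and TYK2. These activate a transcription factor complex that holds IRF9 and binds the interferon-stimulated response element (ISRE) in gene promoters. The genes it switches on sense viral RNA, block viral entry, translation and replication, or tune the response itself. In tumors, interferon-stimulated genes can be read in the cancer cells and in the leukocytes and stroma around them. IFN-gamma, made mainly by T cells and NK cells, acts through a receptor of its own on GAS elements and shares part of these targets. RAG1 is required to assemble antigen receptors, so RAG1-/- mice have no mature T or B lymphocytes.

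The promoters of the members were read from RefSeq sequences of GRCm38.p6, the build of the deposited data, over 300 bases from 250 before to 50 after the annotated start. Entries were found for 28 members. The ISRE core, searched on both strands as GAAA, any 2 bases and GAAA, was present in 14 of 31 member promoters (45.2%, 13 genes) and in 1131 of all 32851 promoters (3.44%). The GAS core, TTC and GAA with any 3 bases between, was present in 6 of 31 member promoters (19.4%) and in 8.30% of all. Matches to both patterns overlapped each other in Bst2 and Ifitm3. Windows from 160 to 41 bases before the start are shown for 5 members whose levels recur below, on the strand of the gene with the ISRE core matches in capitals.
Isg15, chr4:156200859-156200978, minus strand: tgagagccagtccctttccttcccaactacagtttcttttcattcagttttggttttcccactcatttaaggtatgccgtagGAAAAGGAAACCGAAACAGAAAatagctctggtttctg
Ifit1, chr19:34640729-34640848, plus strand: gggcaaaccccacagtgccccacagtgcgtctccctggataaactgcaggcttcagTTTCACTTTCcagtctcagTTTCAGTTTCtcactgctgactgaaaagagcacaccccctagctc
Ifit3, chr19:34583369-34583488, plus strand: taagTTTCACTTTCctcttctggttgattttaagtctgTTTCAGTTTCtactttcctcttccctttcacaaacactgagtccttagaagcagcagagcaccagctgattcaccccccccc
Rsad2, chr12:26456493-26456612, minus strand: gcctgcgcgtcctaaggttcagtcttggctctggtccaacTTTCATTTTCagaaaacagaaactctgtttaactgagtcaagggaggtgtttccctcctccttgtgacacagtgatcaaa
Bst2, chr8:71537513-71537632, minus strand: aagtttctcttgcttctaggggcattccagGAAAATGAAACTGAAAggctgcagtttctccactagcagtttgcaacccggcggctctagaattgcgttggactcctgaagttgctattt
The Isg15 window holds 3 matches that run into each other, the Ifit1 and Ifit3 windows hold 2 separate matches each, the Rsad2 window holds 1 and the Bst2 window holds 2 that overlap. These are matches of letters, and binding was not measured. Members also lie close to each other. In 6 places members sit within 200 kb, and these hold 16 of the 38 genes: Ifit2, Ifit3 and Ifit1 on chromosome 19, Oas2, Oas3, Oas1g and Oas1a as well as Oasl2 and Oasl1 on chromosome 5, Parp14, Dtx3l and Parp9 as well as Mx1 and Mx2 on chromosome 16, and Rsad2 and Cmpk2 on chromosome 12.

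The libraries held 5589151 to 26134241 reads on genes, and 3 reads, taken as the lowest level the counting can show, stood at 1.33 to 6.38 normalized counts (reads divided by the size factor of the library). Reads of Rag1 went against the labels, with 1 to 12 reads in tumors labelled RAG1-/- and at most 1 in wild-type tumors. Whether these reads lie outside the deleted segment is not given in the sources used here. The T-cell genes Cd3e, Cd3g and Trac were at 0 in all tumors labelled RAG1-/-, and the summed level of the T-cell markers was 3.93 to 39.1 there and 86.0 to 273 in wild-type tumors. Directions between hosts rest on the labels as given. The cells carried little of the epithelial program of their labelled origin, since 7 epithelial markers, Epcam, Cdh1 and Krt8 among them, summed to 4.28 and 7.82 normalized counts in the MC38 libraries.

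All 38 members were read in tumors and skin, and 37 of them in MC38 cells. Their summed level was 6098 and 6146 normalized counts in the MC38 libraries, 17131 to 26104 in tumors labelled RAG1-/-, 18904 to 30976 in wild-type tumors, and 19113 and 35359 in skin. Both MC38 libraries thus lay below every tumor and both skin samples. The tumors of the 2 hosts overlapped. The genes whose reads depend most on near-identical copies are Oas1a and Oas1g, since 56.1% and 30.2% of the 50-base words near their 3′ ends also occur in the other, and Ifit3 (14.9%, shared with Ifit3b) and Ifitm3 (14.0%, shared with relatives such as Ifitm1 and Ifitm2), so their values are uncertain. Parp9 and Dtx3l share exonic bases on opposite strands (9.40% and 8.00% of each), as do Ifi35 and a neighbouring transcript (16.8%), and the strand setting of the counting is not stated.

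**Figure D1:**
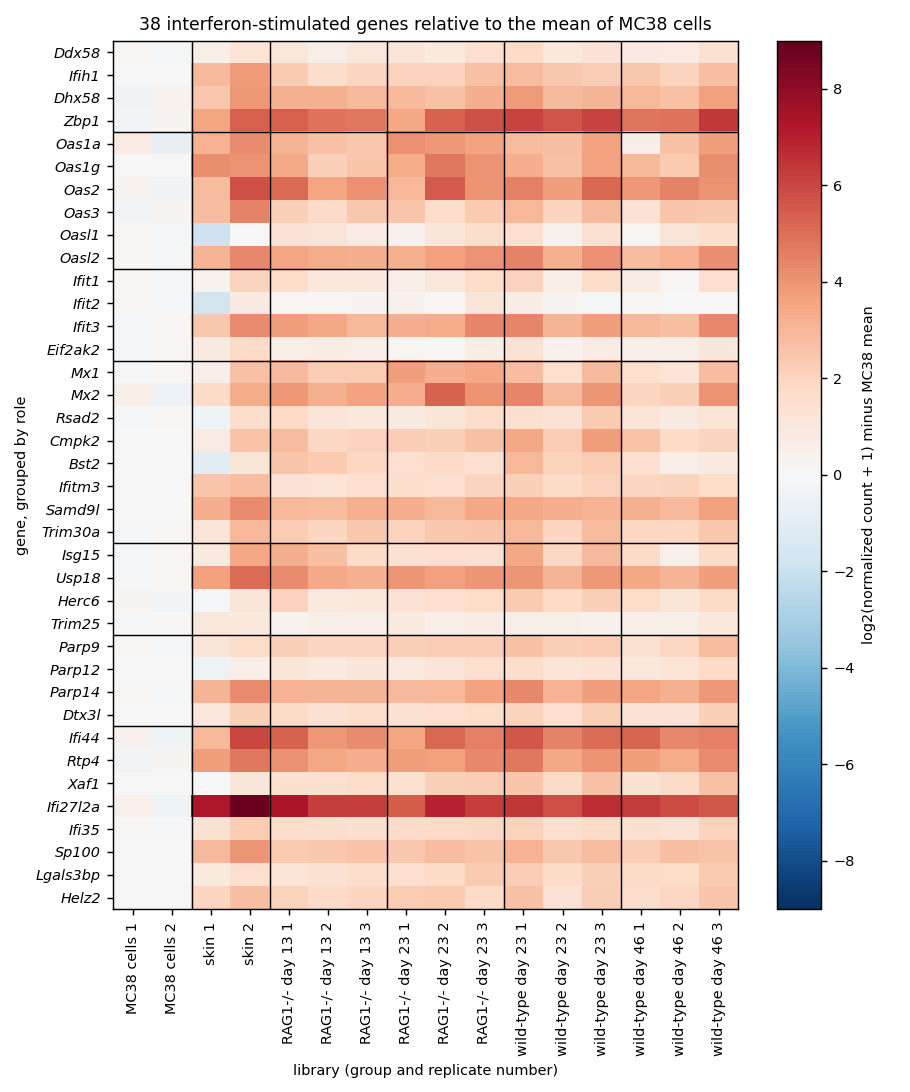
Each row is a member, in blocks of sensors, OAS family, IFIT proteins and PKR, restriction factors, the ISG15 system, the PARP group and others, and each column a library. Color is log2(normalized count + 1) minus the mean of the 2 MC38 libraries. Nearly every tumor value and most skin values are above the MC38 mean, with Ifi27l2a and Zbp1 among the highest. Skin replicate 1 is below that mean for Oasl1, Ifit2, Rsad2, Bst2, Herc6 and Parp12. Skin replicate 2 is above skin replicate 1 for 36 of 38 members.

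Nearly all members were higher in tumors than in cultured MC38 cells, in both hosts. In tumors labelled RAG1-/- (6) against MC38 cells (2), 35 of 38 members were higher and 0 lower with an adjusted p under 0.05 from limma, while 15.8% of the 14708 genes tested were higher and 7.55% lower. Against the same cells, 6 wild-type tumors had 37 members higher and 0 lower, beside 18.3% and 9.61% of all genes. The median member log2 fold change was 2.11 in tumors labelled RAG1-/- and 2.26 in wild-type tumors, beside 0.06 and 0.05 over all genes tested. With Oas1g, which had 0 reads in both MC38 libraries, set at its bound, the medians were 2.10 and 2.15. The 2 comparisons share the MC38 libraries. Fold changes here are on the scale log2(normalized count + 1), so the change of a gene with few reads is understated. In whole tumor pieces fewer cells of a type and less RNA per cell cannot be told apart. Without replicate 1 or 2 of MC38 in turn, or any tumor, 32 to 36 and 32 to 37 members were higher. Tumor and cell values did not overlap for 37 of 38 members in tumors labelled RAG1-/- and for 35 of 38 in wild-type tumors, where 21.2% and 21.7% of all genes were higher without overlap and 15.4% and 15.7%, with 0 members, lower. The exceptions were Eif2ak2 in the former and Ifit1, Ifit2 and Oas1a in the latter.

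Among the sensors of nucleic acid, the 4 members rose in both hosts. Zbp1, which binds Z-form nucleic acid and triggers cell death, stood at 6.84 and 9.78 normalized counts in MC38 cells. It stood at 387, 270 and 243 in day 13 tumors labelled RAG1-/-, at 103, 360 and 478 at day 23, at 608, 472 and 632 in wild-type tumors at day 23 and at 254, 277 and 757 at day 46. All tumors were far above the cells. The log2 fold change of Zbp1 was 4.92 (standard error 0.46, limma adjusted p = 1.74e-07) in tumors labelled RAG1-/- and 5.65 (0.46, 2.29e-08) in wild-type tumors. Dhx58, which encodes the RIG-I-like helicase LGP2, stood at 10.3 and 15.6 in the cells and at 85.1 to 198 in the 12 tumors, with log2 fold changes of 3.02 (standard error 0.32, limma adjusted p = 1.10e-06) and 3.20 (0.32, 4.64e-07). The RNA sensor genes Ifih1 (MDA5) and Ddx58 (RIG-I) changed less. Ddx58 was already at 332 and 252 in MC38 cells and reached 410 to 992 in tumors.

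Active enzymes of the OAS family make 2′-5′ oligoadenylate, the activator of RNase L, when they meet double-stranded RNA. Not every protein of the family has this activity. Of the 6 genes of the family read here, all but Oasl1 passed in tumors labelled RAG1-/- and all passed in wild-type tumors. Oas2 stood at 3.42 and 1.96 normalized counts in MC38 cells, which is 4 and 2 reads. In tumors labelled RAG1-/- it stood at 122, 42.3 and 61.9 at day 13 and at 27.5, 164 and 57.4 at day 23, and in wild-type tumors at 84.8, 48.6 and 132 at day 23 and at 51.8, 79.2 and 57.8 at day 46. All 12 tumors were above both cell libraries, with log2 fold changes of 4.22 (standard error 0.55, limma adjusted p = 1.23e-05) and 4.32 (0.55, 8.17e-06). Oas1g, without a read in MC38 cells, was at 3.34 to 25.5 in tumors labelled RAG1-/- and at 4.03 to 17.6 in wild-type tumors, at least 4.11-fold and 3.24-fold higher by group means against a floor of 3 reads per library. Oasl2 rose by a log2 fold change of 3.52 (standard error 0.34, limma adjusted p = 2.48e-07) and 3.64 (0.34, 1.40e-07). Oasl1, which inhibits translation of Irf7 in mice, was at 100 and 79.2 in the cells and at 102 to 270 in the tumors. Its adjusted p from limma was 0.0507 in tumors labelled RAG1-/- and 0.0453 in wild-type tumors, with log2 fold changes of 1.04 in both. The wild-type call was lost in 13 alternatives, and 5 alternatives, DESeq2 among them (adjusted p = 0.0188), called Oasl1 in tumors labelled RAG1-/-, so the calls do not separate the hosts.

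The IFIT proteins bind foreign RNA and PKR, encoded by Eif2ak2, stops translation when it meets double-stranded RNA. These 4 genes were unlike each other. Ifit3 rose from 30.8 and 37.1 in MC38 cells to 224 to 736 in tumors, a mean 12.4-fold higher in tumors labelled RAG1-/- and 13.3-fold in wild-type tumors. Ifit1 stood at 241 and 184 in the cells. It stood at 659, 403 and 411 in day 13 and 321, 430 and 679 in day 23 tumors labelled RAG1-/-, and at 891, 322 and 677 at day 23 and 327, 229 and 591 at day 46 in wild-type tumors. The wild-type values reach into the range of the cells. Its log2 fold change was 1.14 (standard error 0.37, limma adjusted p = 0.0337) and 1.10 (0.37, 0.0350), and the call was kept in 11 of 20 and 10 of 19 alternatives. Ifit2 was at 363 and 314 in MC38 cells, at 374 to 720 in tumors labelled RAG1-/- and at 318 to 527 in wild-type tumors. It passed in neither host (limma adjusted p = 0.255 and 0.684). Eif2ak2, at 156 and 199 in cells, passed in wild-type tumors (limma adjusted p = 0.0224) but not in tumors labelled RAG1-/- (0.194). The wild-type call was lost without MC38 replicate 1 (limma adjusted p = 0.254) and without MC38 replicate 2 (0.0601). The difference between hosts was not past the threshold (over both days 0.31 on the log2 scale, limma adjusted p = 0.509).

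The restriction factors act on viral entry, uncoating, replication or release. All 8 were higher in the tumors of both hosts. Rsad2 encodes viperin, which makes a chain-terminating nucleotide, and lies beside Cmpk2, which supplies its substrate. Rsad2 was at 364 and 426 in MC38 cells, at 1393, 869 and 775 in day 13 and 700, 851 and 1233 in day 23 tumors labelled RAG1-/-, and at 1154, 951 and 2052 at day 23 and 918, 696 and 920 at day 46 in wild-type tumors. Cells and tumors did not overlap, and the log2 fold change was 1.25 (standard error 0.27, limma adjusted p = 0.00227) and 1.41 (0.27, 0.000709). Mx1, a dynamin-like GTPase that traps viral ribonucleoprotein, was at 16.3 and 21.5 in the cells. C57BL/6 mice carry an allele of Mx1 that lacks exons and makes no functional protein. In tumors labelled RAG1-/- it was at 147, 96.7 and 93.4 at day 13 and at 264, 185 and 220 at day 23, and in wild-type tumors at 134, 54.6 and 151 at day 23 and at 53.8, 44.3 and 137 at day 46. Its log2 fold change was 2.99 (standard error 0.41, limma adjusted p = 2.51e-05) and 2.12 (0.41, 0.000791). Ifitm3, which blocks fusion of viruses in endosomes, was at 1476 and 1524 in MC38 cells and at 3549 to 6695 in tumors, with log2 fold changes of 1.51 (standard error 0.16, limma adjusted p = 9.97e-07) and 1.93 (0.16, 3.56e-08). Samd9l rose by 3.10 (standard error 0.23, limma adjusted p = 7.04e-09) and 3.28 (0.23, 2.84e-09), and Trim30a by 2.25 (0.25, 1.95e-06) and 2.34 (0.25, 1.03e-06).

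ISG15 is a ubiquitin-like protein that is joined to other proteins, USP18 removes it and also dampens signalling at the receptor, and Herc6 and Trim25 encode ligases of this system. All 4 were higher in tumors of both hosts. Isg15 was at 87.3 and 103 normalized counts in MC38 cells. It was at 901, 619 and 308 in day 13 and 258, 274 and 266 in day 23 tumors labelled RAG1-/-, and at 1069, 351 and 716 at day 23 and 311, 129 and 315 at day 46 in wild-type tumors. Every tumor was above the cells, by 4.61-fold and 5.08-fold in the group means, and the log2 fold change was 2.01 (standard error 0.40, limma adjusted p = 0.00117) and 2.02 (0.40, 0.000963). Usp18 was at 13.7 and 18.6 in the cells. It was at 317, 176 and 158 and at 259, 221 and 263 in day 13 and day 23 tumors labelled RAG1-/-, and at 261, 137 and 257 and at 192, 140 and 230 in day 23 and day 46 wild-type tumors. All 12 tumors lay between 137 and 317, far above the cells, with log2 fold changes of 3.74 (standard error 0.30, limma adjusted p = 2.64e-08) and 3.54 (0.30, 5.13e-08).

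The ADP-ribosyltransferase genes Parp9, Parp12 and Parp14 and Dtx3l, whose product is the partner of PARP9, were all higher in both hosts. Parp14 rose most of the 4, by 3.13 (standard error 0.27, limma adjusted p = 6.20e-08) and 3.66 (0.27, 6.42e-09). The remaining 8 members were higher in both hosts as well. Ifi27l2a, a small interferon-induced membrane protein gene, was at 12.0 and 5.87 in MC38 cells, at 1532, 705 and 717 in day 13 and 411, 1145 and 689 in day 23 tumors labelled RAG1-/-, and at 812, 513 and 965 at day 23 and 739, 565 and 459 at day 46 in wild-type tumors. It had the greatest log2 fold change of the 38 in both hosts, at 6.40 (standard error 0.37, limma adjusted p = 2.33e-10) and 6.11 (0.37, 3.82e-10). Ifi44 rose by 4.47 (standard error 0.43, limma adjusted p = 2.44e-07) and 4.87 (0.43, 6.98e-08), and Rtp4 by 3.76 (0.30, 2.35e-08) and 3.95 (0.30, 1.08e-08). Sp100, a nuclear body protein gene, rose by 2.53 (standard error 0.21, limma adjusted p = 4.34e-08) and 2.64 (0.21, 2.17e-08).

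**Figure D2:**
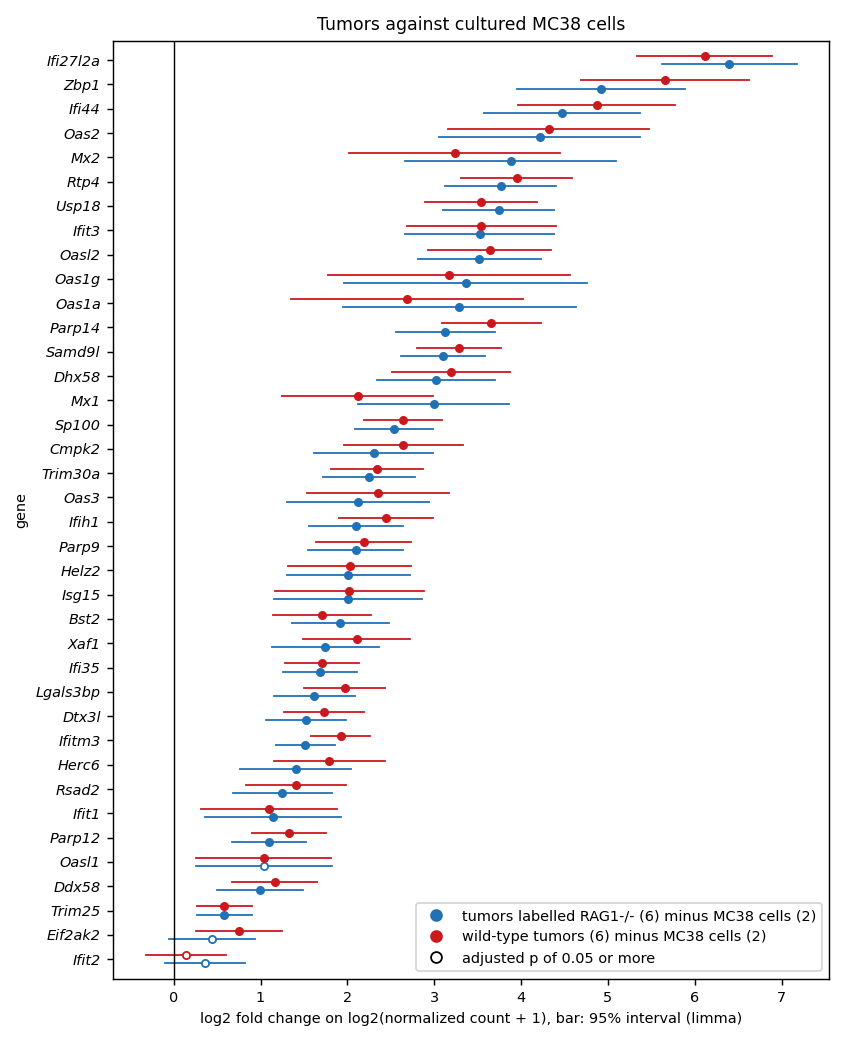
Each point is the log2 fold change of a member in 6 tumors against 2 MC38 libraries, with its 95% interval from limma, in tumors labelled RAG1-/- (blue) and wild-type tumors (red). All 38 points of each color lie above 0, from 0.37 and 0.14 for Ifit2 to 6.40 and 6.11 for Ifi27l2a, and the 4 open points are those that did not pass the threshold.

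The genes that carry the interferon signal were read beside the members. Of 12 genes for receptors, kinases and transcription factors of the pathway, 11 were tested and 9 were higher than in MC38 cells in each host. Of all genes tested, 15.8% were higher in tumors labelled RAG1-/- and 18.3% in wild-type tumors. Irf9, the DNA-binding part of the complex, rose by 2.89 (standard error 0.27, limma adjusted p = 2.25e-07) and 3.21 (0.27, 4.79e-08), and Ifnar2 by 1.28 (0.21, 0.000156) and 1.44 (0.21, 4.05e-05). Irf7, the factor that amplifies IFN-alpha production, was at 1.71 and 0.978 in the cells and at 296 to 676 in tumors. The interferons themselves were barely read. Of 21 interferon genes, 18 had no read in either MC38 library, and Ifnb1 was at 0 to 3.81 normalized counts in all 12 tumors. Ifnz was read in MC38 cells, at 4.28 and 19.6 in the 2 libraries, and stood at 1.48 to 3.77 in wild-type tumors and at 0 in skin. Ifna1, Ifna2 and Ifna4 had no read in any library, so their level was not detectable at this depth. In a list of 40 other interferon-stimulated genes, 37 were tested, and 27 and 29 were higher than in MC38 cells. The shares of all genes were the same 15.8% and 18.3%. Medians of the list were 1.99 and 2.19.

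General leukocyte and macrophage markers moved with the members in this comparison. The 4 general leukocyte markers, Ptprc among them, summed to 0 and 0.978 normalized counts in MC38 cells and to 3952 to 8051 in tumors. The 9 macrophage markers summed to 43.6 and 68.4 in cells and to 15831 to 32957 in tumors, with Adgre1 and Mrc1 at 0 in both cell libraries. Fibroblast markers summed to 4955 and 5649 in cells and to 13559 to 48534 in tumors. Of all genes tested, 15.8% were higher than in MC38 cells in tumors labelled RAG1-/- and 18.3% in wild-type tumors. Of 6 markers of plasmacytoid dendritic cells, the member Bst2 among them, 3 were tested and 1 was higher in each host. Siglech, another of the 6, was at 0 to 8.51 in tumors. Of 7 tested T-cell markers, 0 were higher than in MC38 cells in tumors labelled RAG1-/- and 6 in wild-type tumors. For 3 tested B-cell markers these counts were 2 and 3. In each host 1 of 2 tested NK-cell markers and 3 of 4 tested neutrophil markers were higher. The part of these cell types in the members' levels was not tested.

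Wild-type tumors and tumors labelled RAG1-/- were compared at day 23, the time both hosts share, to ask whether the members depend on adaptive immunity. Of the 38 members, 0 were higher and 0 lower with an adjusted p under 0.05 from limma, where 0.231% of 14746 genes were higher and 0.0475% lower. At an unadjusted limma p under 0.05, 5 members were higher and 1 lower, where 938 and 708 of 14746 genes were. edgeR called 0 in each direction, where it called 0.115% of all genes higher and 0.0339% lower. DESeq2 called 1 member, Isg15, higher (log2 fold change 1.41, DESeq2 adjusted p = 0.0337) and 0 lower, where it called 1.07% and 0.549% of all genes. The median member log2 fold change was 0.24, and 29 of 38 were positive, beside a median of 0.01 over all genes. Groups did not overlap for 3 higher members (Bst2, Herc6, Isg15) and 3 lower members (Mx1, Oas1a, Trim25), where 8.5% and 7.62% of all genes did not overlap.

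Among single members at day 23, Isg15 and Mx1 went in opposite directions. Isg15 at day 23 averaged 712 normalized counts in wild-type tumors and 266 in tumors labelled RAG1-/-, a log2 difference of 1.28 (standard error 0.42, 95% interval 0.38 to 2.17, limma adjusted p = 0.257). Mx1 averaged 113 and 223, a log2 difference of -1.09 (standard error 0.42, 95% interval -1.98 to -0.19, limma adjusted p = 0.345). Neither passed. Bst2, which encodes tetherin and tethers budding virus to the cell, was at 639, 337 and 387 in wild-type tumors and at 234, 268 and 227 in tumors labelled RAG1-/-. Chosen here after its values were seen, Bst2 did not pass (log2 difference 0.85, limma adjusted p = 0.247). Over both days its log2 difference was -0.21 (limma adjusted p = 0.731). For Ifit1 the log2 difference was 0.35 (95% interval -0.47 to 1.17, limma adjusted p = 0.786), for Rsad2 0.54 (-0.07 to 1.14, 0.515), for Oas2 0.35 (-0.83 to 1.52, 0.863) and for Usp18 -0.24 (-0.88 to 0.40, 0.822). These intervals leave room for differences of either sign, and with 3 against 3 tumors an exact two-sided permutation test of a single gene cannot go below p = 0.1.

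With both days combined, 6 wild-type tumors against 6 labelled RAG1-/-, limma called 0 members in either direction, against 0.57% of all genes higher and 0.142% lower. At an unadjusted limma p under 0.05, 4 members were higher and 1 lower, where 979 and 703 of 14746 genes were. edgeR and DESeq2 also called 0 members in each direction, where edgeR called 0.597% of all genes higher and 0.156% lower and DESeq2 1.32% and 0.61%. The median was 0.11 beside 0.01 over all genes. The days differ between the hosts, so host and day cannot be fully told apart in this comparison. Isg15, with a log2 difference of 0.01 (95% interval -0.62 to 0.65, limma adjusted p = 0.994), did not keep the distance it had at day 23, and Mx1 was again lower in wild-type tumors at -0.88 (-1.51 to -0.24, 0.251) without passing. Groups overlapped for all 38 members, where 0.651% of all genes were higher and 0.332% lower without overlap.

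A list of 19 IFN-gamma target genes, chosen with earlier results of these data known, was read in the same libraries. Of 17 tested, 5 were higher in wild-type tumors at day 23 and 8 over both days, where 0.231% and 0.57% of all genes were. In both comparisons 0 were lower, where 0.0475% and 0.142% of all genes were, and the medians were 1.81 and 1.40. Cxcl9, the chemokine that draws T cells, was at 3899, 2282 and 1982 normalized counts in wild-type and at 58.9, 29.8 and 94.6 in RAG1-/- labelled tumors at day 23, a log2 difference of 5.54 (standard error 0.44, limma adjusted p = 2.23e-05). Iigp1, Igtp, Gbp7 and Irgm2, GTPases of cell-autonomous defence, passed as well, with log2 differences of 3.31, 2.16, 1.46 and 1.81. Stat2 (0.69, limma adjusted p = 0.391) and Irf9 (0.27, 0.719), which belong to the complex on ISRE sequences, did not pass at day 23. Ifng was at 22.9, 3.41 and 9.51 normalized counts in wild-type tumors and at 5.24, 0 and 1.33 in tumors labelled RAG1-/- at day 23. Of 36 other interferon-stimulated genes tested, 0 passed in either comparison. The difference between the lists was not tested.

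**Figure D3:**
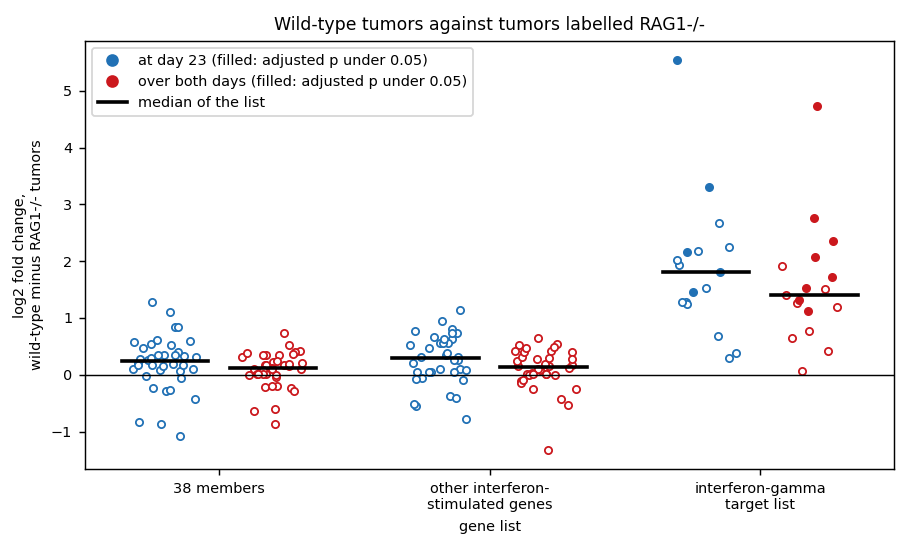
Each point is the log2 fold change of a gene in wild-type tumors against tumors labelled RAG1-/-, at day 23 (blue) or over both days (red), in 3 gene lists, with the list's median as a bar and filled points past the adjusted threshold. The 38 members center near 0 with medians of 0.24 and 0.11 and no filled point. The IFN-gamma target list has medians of 1.81 and 1.40 with 5 and 8 filled points. The lists were chosen with earlier results of these data known, and the difference between them was not tested.

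Later tumors were compared with earlier tumors of the same host. In wild-type tumors, day 46 against day 23, 0 members and 0% of all genes passed in either direction with limma or edgeR. At an unadjusted limma p under 0.05, 0 members were higher and 4 lower, where 686 and 575 of 14746 genes were. The member median was -0.32 and 36 of 38 log2 fold changes were negative, beside 0.00 over all genes. Other lists had negative values too, without a gene past the threshold: 17 of 17 tested IFN-gamma targets were negative (median -0.76), and the medians were -0.26 for 36 other interferon-stimulated genes, -0.19 for the 9 macrophage markers and -2.28 for the 6 keratinocyte markers, while that of the 6 fibroblast markers was 0.78. The part of these cell types in the members' values was not tested. Bst2, Isg15, Herc6 and Rsad2 were lower without overlap and 0 members higher, where 5.44% of all genes were lower and 7.02% higher without overlap. Isg15 stood at -1.47 (standard error 0.42, limma adjusted p = 0.385). Bst2, chosen here after its values were seen, was at 639, 337 and 387 at day 23 and at 230, 122 and 139 at day 46, and DESeq2 called it (log2 fold change -1.48, DESeq2 adjusted p = 0.00125) together with Isg15 (-1.50, DESeq2 adjusted p = 0.0497), while limma did not (adjusted p = 0.285 for Bst2). DESeq2 called 0.115% of all genes lower and 0.176% higher there, and 0 members higher. Without replicate 1 of day 46, limma called Bst2 (adjusted p = 0.0359). Of the other genes in the naming rule, Rsad2 was at -0.65 (limma adjusted p = 0.558), Ifit1 at -0.71 (0.642), Mx1 at -0.58 (0.726), Oas2 at -0.39 (0.876) and Usp18 at -0.19 (0.890).

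In tumors labelled RAG1-/-, day 23 against day 13, 0 members and 0% of all genes passed in either direction with limma or edgeR. DESeq2 also called 0 members, where it called 0.604% of all genes higher and 0.793% lower. At an unadjusted limma p under 0.05, 2 members were higher and 2 lower, where 817 and 905 of 14746 genes were. The member median was 0.19, with 26 of 38 positive, beside -0.01 over all genes. With libraries brought to equal totals the all-gene median was -0.13 and the member median 0.07, with 22 positive. Isg15 and Bst2 were lower at day 23 without overlap (9.92% of all genes did so), and 6 members, Mx1, Oas1a, Ifitm3, Trim25, Ifi35 and Parp9, were higher without overlap (9.48% of all genes). Isg15 was at -1.06 (standard error 0.42, limma adjusted p = 0.348) and Mx1 at 1.00 (0.42, 0.374). Ifit1 was at -0.07, Rsad2 at -0.12, Oas2 at -0.10 and Usp18 at 0.26, each with a limma adjusted p of 0.793 or more. Day 13 replicates 1 and 3 carried muscle genes, with 5 muscle markers summing to 8137 and 8424 normalized counts against 334 in replicate 2 and 39.8 to 75.9 at day 23. Without those 2 tumors, an alternative added after the data were seen, 0 members were again called in either direction. The difference between the time changes of the 2 hosts was also tested after the data were seen. It passed with limma for 0 of 38 members and 0 of 14746 genes. At an unadjusted limma p under 0.05 there were 3 members and 1279 genes.

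**Figure D4:**
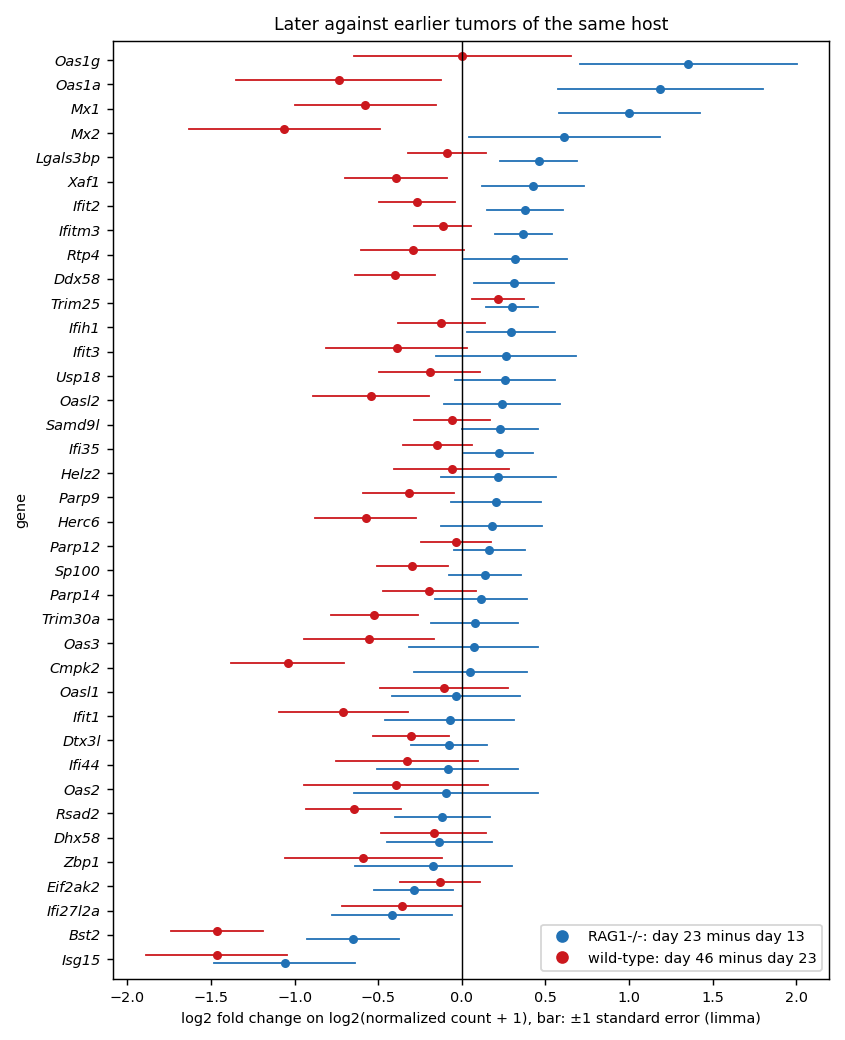
Each point is the log2 fold change of a member from the earlier to the later day, with a bar of 1 standard error, in tumors labelled RAG1-/- (blue) and wild-type tumors (red). Isg15 and Bst2 have the lowest values in both hosts, Oas1a and Mx1 have positive values in tumors labelled RAG1-/- and negative ones in wild-type tumors, and none passed the adjusted threshold.

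MC38 cells were also compared with skin, the tissue at the site of the tumors. In MC38 cells 0 members were higher and 26 lower with an adjusted p under 0.05 from limma, where 20.8% of 16780 genes were higher and 41.2% lower. The member median was -2.25 beside -0.40 over all genes. Scaled to the upper quartile or to equal totals, the all-gene median was 0.11 and 0.03 and the member median -1.78 and -1.84. In either scaling 21 members were lower, and the share of all genes called lower there is not given here. Ifitm3 was lower (log2 fold change -2.61, standard error 0.14, limma adjusted p = 0.000215), Usp18 was at -4.34 (0.51, 0.00177) and Oas2 at -4.33 (1.02, 0.0175). Ifi27l2a, at 1490 and 4436 in skin against 12.0 and 5.87 in cells, was the lowest of the list at -8.09 (0.62, 0.000505). Isg15 (-2.16, limma adjusted p = 0.0797), Ifit1 (-1.15, 0.134), Mx1 (-1.56, 0.136) and Rsad2 (-0.63, 0.445) did not pass. edgeR called 28 members lower and 0 higher, where it called 38.3% of all genes lower and 22.3% higher, and DESeq2 called 30 and 0, where it called 38.4% and 21.3%. Isg15 was among these calls with edgeR (adjusted p = 0.0220) and DESeq2 (0.0369), and Ifit1 with DESeq2 (0.0270). Oasl1 and Ifit2 had positive log2 fold changes of 0.93 and 0.44, and neither passed.

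The 2 skin samples differed from each other in these genes. Isg15 was at 174 and 1045 normalized counts, Ifit1 at 267 and 827, Rsad2 at 307 and 1211, Mx1 at 26.8 and 121, Oas2 at 25.5 and 198 and Usp18 at 216 and 541, in replicates 1 and 2. Replicate 2 was higher for 36 of 38 members (94.7%), and over 2-fold higher for 25, with a median of 2.37-fold. Of 17111 genes with a mean of at least 5 in skin, it was higher for 50.2% and the median was 1.00-fold. Marker lists of leukocytes did not move as one with this. Among 5 neutrophil markers, S100a8 and S100a9, which inflamed keratinocytes also make, were at 1128 and 818 in replicate 1 and at 8797 and 5549 in replicate 2. Csf3r was at 17.4 and 43.3, Cxcr2 at 69.7 and 89.2, and Retnlg went the other way at 12.1 and 1.27. Of the 4 general leukocyte markers, Ptprc was at 418 and 1117, Laptm5 at 1693 and 2510, Tyrobp at 1078 and 1342 and Coro1a at 407 and 435. The macrophage markers summed to 12734 and 12116. The part of these cells in the members' levels was not tested. Without skin replicate 2, the lower members were 15 in place of 26, and Ifit2 was called higher in MC38 cells (log2 fold change 1.66, limma adjusted p = 0.0440). The 11 that lost the call were Dhx58, Oas1a, Oas2, Oas3, Eif2ak2, Mx2, Trim30a, Trim25, Parp9, Ifi44 and Lgals3bp.

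**Figure D5:**
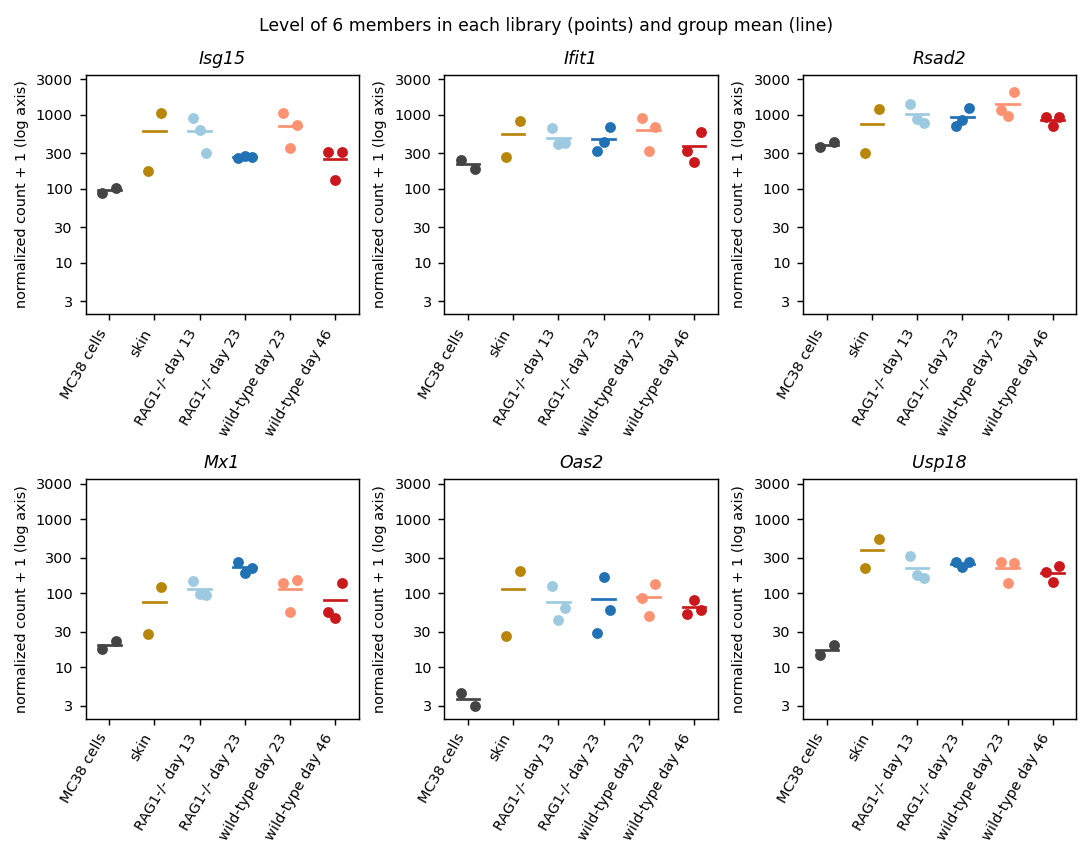
Points are the normalized count + 1 of 6 members in each of 16 libraries on a logarithmic axis, and lines are group means. MC38 cells are below every tumor for Isg15, Rsad2, Mx1, Oas2 and Usp18, the tumors of the 2 hosts overlap for each gene when both days are combined, and the 2 skin points lie apart.

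Within groups the members also varied together by library. In wild-type tumors at day 23, replicate 1 was the highest of the 3 for 28 of 38 members and replicate 2 the lowest for 34. Replicate 2 was the library with keratinocyte genes, whose 6 markers summed to 1837 normalized counts against 381 and 700 in replicates 1 and 3. At day 46, replicate 3 was the highest for 29 members. In tumors labelled RAG1-/-, replicate 1 at day 13 was the highest for 26 members and replicate 3 at day 23 for 24. The within-group standard deviation over the 12 tumors, on the log2 scale, ran from 0.16 for Trim25 to 0.87 for Mx2. Replicates have no order across groups, and what sets these libraries apart was not tested.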

How the data were processed

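Libraries were made with QuantSeq 3′ kits and sequenced on an Ion Proton. The authors trimmed reads with Cutadapt and Trimmomatic, dropped reads under 22 nucleotides, aligned to mm10 with STAR and then Bowtie2, kept primary alignments, removed ribosomal reads, counted per gene with HTSeq-count and divided by DESeq2 size factors, which gave the deposited signal, a normalized count per gene. Versions, annotation and strand setting are not given in the sources used here. In each library 100% of values came out as whole reads at its size factor (tolerance 1e-06 of a read), so reads were recovered for edgeR 4.0.16 and DESeq2 1.42.0. A second table was not used, since its 6 columns match no label.

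The main test was limma 3.58.1 (R 4.3.3) with a mean-dependent trend on log2(normalized count + 1), two-sided, restricted to genes averaging 5 or more over the libraries of the fit, with Benjamini-Hochberg adjustment over all genes and a threshold of 0.05. Fits held the 12 tumors, the tumors with MC38 cells (14 libraries) or MC38 cells with skin (4). Replicates were not copies of one library. Floors cover counting error only. Alternatives were other pseudocounts, filters, scalings, the replicate number as a block, no trend, the compared groups alone, edgeR, DESeq2 and leaving out each replicate. The script was tested on simulated data. Members and gene lists were chosen with earlier results of these data known. By the naming rule, statistics are given for up to 12 called members with the smallest adjusted p in a comparison and for Isg15, Ifit1, Rsad2, Mx1, Oas2 and Usp18, and for up to 5 genes each of the IFN-gamma target list and the other interferon-stimulated genes. Any member and genes of the pathway and marker lists may be named with values. The result of 1 gene of the pathway list is not reported here.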

Additional observations from a re-analysis of the deposited data

How the results depend on the processing

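The counts of members called kept within 1.5 times of those reported under the alternatives run, apart from 3 comparisons. For wild-type tumors against tumors labelled RAG1-/- at day 23, DESeq2 called 1 member higher. For day 46 against day 23 in wild-type tumors, DESeq2 called 2 members lower, and leaving out each replicate gave 0 to 1. For MC38 cells against skin, leaving out each replicate gave 0 to 1 higher and 15 to 26 lower. The causes were not tested. Against MC38 cells, the alternatives other than left-out replicates gave 34 to 36 members higher in tumors labelled RAG1-/- and 35 to 37 in wild-type tumors. Under the upper quartile, 37 of 38 log2 fold changes were positive in wild-type tumors.

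Log2 differences near 0 turned sign. Over both days, Isg15 (0.01) was at -0.013 with the upper quartile and -0.0658 without the 2 tumors highest in muscle markers, Ifit1 (-0.04) at 0.013 with edgeR, 0.013 with DESeq2 and 0.083 without those 2 tumors, and Oas2 (0.10) at -0.069 with edgeR and -0.080 with DESeq2. Leaving out each replicate gave -0.20 to 0.23 for Isg15, -0.22 to 0.17 for Ifit1, -0.0051 to 0.28 for Rsad2 and -0.20 to 0.44 for Oas2. At day 23 it gave -0.25 to 1.02 for Oas2 and -0.39 to 0.067 for Usp18, and for wild-type day 46 against day 23 -0.50 to 0.0016 for Usp18. For day 23 against day 13 in tumors labelled RAG1-/-, Oas2 was at 0.087 with edgeR, 0.11 with DESeq2 and 0.59 without the 2 tumors highest in muscle markers, Ifit1 at 0.17 and Rsad2 at 0.054 without those tumors, and leaving out each replicate gave -0.77 to 0.50 for Oas2, -0.36 to 0.18 for Ifit1 and -0.34 to 0.14 for Rsad2. For Rsad2 in MC38 cells against skin it gave -1.62 to 0.36.

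The replicate numbers share only a number. Same-numbered tumors deviated with correlations of -0.24 to 0.25 and others with -0.21 to 0.20. With the replicate block 0 members were called between tumor groups, and 35 and 36 were higher than in MC38 cells. In MC38 cells 31 were lower than in skin. Member medians in the MC38 comparisons were then 2.05, 2.16 and -2.25, beside 0.06, 0.05 and -0.40 over all genes. Shares of all genes called are not given here for this block, the other scalings or the left-out replicates, so these counts lack that background. For both days the fit of the compared groups alone is the reported fit. Each comparison rests on 2 or 3 samples a group, the day 46 and day 13 tumors have no counterpart in the other host, and MC38 levels of Oas1a, Oas1g, Oas2 and Mx2 rest on few reads.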
